A study of Mus musculus with 8 samples.

Results

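The 33 genes described here are type I interferon response genes, a list of interferon-stimulated genes matched by symbol, out of 53465 genes in the RNA-seq count table. All 33 symbols were found in the table, and 23 of them passed the filter on low counts that left 14301 genes for testing. The cells were 2 mouse pancreatic ductal adenocarcinoma (PDAC) lines, B73 and B87, each grown from the primary tumor of a KC-shSmad4 mouse, which carries *Ptf1a*-Cre (recombination in the pancreas), an *LSL-rtTA3-IRES-mKate2* transactivator at *Rosa26* and, in the *Col1a1* homing cassette, a doxycycline (Dox)-inducible, GFP-linked short hairpin RNA against *Smad4*, on a mixed C57BL/6J;129 background. Smad4-off cells were kept on Dox, and Smad4-on cells had been without Dox for 5 days when plated. From 24 h after plating, each was given either 100 pM recombinant TGFβ1 or 2.5 µM SB505124 (SB), a kinase inhibitor of the TGFβ type I receptor, for 24 h. This gave 4 groups of 2 libraries, 1 per line, so the replicates of a group are 2 tumor-derived lines and each of the 8 libraries comes from cells given TGFβ1 or SB505124. A difference between these treatments therefore cannot be assigned to TGFβ1 or to SB505124. No line with a control hairpin was among the libraries, and the *Smad4* state therefore cannot be told apart from Dox itself or from expression of the hairpin and GFP.

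Type I interferons are secreted cytokines that bind the receptor pair IFNAR1 and IFNAR2. Receptor-bound JAK kinases then phosphorylate STAT proteins, and STAT2 and IRF9 enter the nucleus as parts of the complex ISGF3, which binds the interferon-stimulated response element (ISRE) in promoters. The induced genes encode RNA sensors, inhibitors of viral entry, translation and budding, the ubiquitin-like protein ISG15, and factors such as IRF7 that raise interferon production further. In tumor cells without infection many of these genes keep a low tonic level.

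Libraries held between 18389235 and 23440550 counts. *Smad4*, the target of the hairpin, was higher in Smad4-on cells under TGFβ1 (log2 fold change 1.73) and under SB505124 (1.62), in the direction of the labels. The epithelial keratin genes *Krt8*, *Krt18* and *Krt19* were abundant in all libraries (at least 2994 counts), whereas *Epcam* had 3 to 39 counts. Of 8 leukocyte markers, *Cd3e*, *Adgre1* and *Siglech* had 0 counts in all libraries and *Ptprc* had at most 3. Levels are given in CPM, read counts scaled to the size of each library after TMM correction, and 3 counts, the smallest number taken as detectable, are 0.125 to 0.162 CPM. In bulk RNA, fewer cells carrying a transcript and less transcript per cell cannot be told apart.

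Sequence shared by the group was examined in the promoters, which the choice of genes did not use. RefSeq promoters (GRCm38.p6, 300 bases, 250 before and 50 after the start site) were matched by symbol for 25 of the 33 genes. The ISRE core, searched as GAAANNGAA on both strands, was present in 14 of these 25 genes, against 9.76% of all genes with a promoter in that table. The gamma-activated site (GAS), which STAT homodimers bind, was searched as TTCNNNGAA, which reads alike on both strands, and was present in 7 of 25 genes, against 9.55% of all genes. Both are matches of letters and not measured binding. The 250 bases before the RefSeq start site are shown for 5 genes to which the results below return, with matches in capitals. For *Bst2*, *Ifit1* and *Trim25* the RefSeq start site differs from the gene end of the annotation used for the counts.
Bst2, chr8:71537473-71537722, minus strand: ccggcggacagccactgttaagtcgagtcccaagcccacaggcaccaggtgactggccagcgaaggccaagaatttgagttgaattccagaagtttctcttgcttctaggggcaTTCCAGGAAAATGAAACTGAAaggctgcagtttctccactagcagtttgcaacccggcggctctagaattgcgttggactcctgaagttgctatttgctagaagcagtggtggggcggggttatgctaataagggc
Isg15, chr4:156200819-156201068, minus strand: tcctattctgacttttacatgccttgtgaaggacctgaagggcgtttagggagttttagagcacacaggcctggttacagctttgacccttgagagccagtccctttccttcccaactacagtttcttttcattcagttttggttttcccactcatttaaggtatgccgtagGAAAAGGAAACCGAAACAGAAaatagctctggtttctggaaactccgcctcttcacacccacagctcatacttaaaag
Ifit1, chr19:34640639-34640888, plus strand: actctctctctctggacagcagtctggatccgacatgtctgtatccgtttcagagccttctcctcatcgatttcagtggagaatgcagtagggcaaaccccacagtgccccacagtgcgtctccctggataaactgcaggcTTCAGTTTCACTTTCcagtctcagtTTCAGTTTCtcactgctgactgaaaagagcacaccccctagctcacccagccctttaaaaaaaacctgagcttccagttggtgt
Irf1, chr11:53769764-53770013, plus strand: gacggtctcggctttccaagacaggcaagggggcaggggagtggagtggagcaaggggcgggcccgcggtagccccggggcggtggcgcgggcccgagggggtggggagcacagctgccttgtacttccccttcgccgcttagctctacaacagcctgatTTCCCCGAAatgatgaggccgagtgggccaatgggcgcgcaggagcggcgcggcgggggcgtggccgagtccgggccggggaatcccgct
Trim25, chr11:88999153-88999402, plus strand: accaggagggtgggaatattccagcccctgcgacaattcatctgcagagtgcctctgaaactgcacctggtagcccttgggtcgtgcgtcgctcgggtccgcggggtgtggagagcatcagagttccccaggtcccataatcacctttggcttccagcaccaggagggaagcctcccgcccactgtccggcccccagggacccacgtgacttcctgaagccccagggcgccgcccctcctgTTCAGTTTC
In *Bst2* a GAS match beginning 136 bases before the start site overlapped 2 ISRE core matches beginning at 130 and 124 bases. *Isg15* held 3 overlapping ISRE core matches in a row (78, 72 and 66 bases before the start site), and *Ifit1* held 3 on the other strand (109, 103 and 84 bases). *Irf1* held a GAS match at 90 bases and no ISRE core match, and another RefSeq promoter window of *Irf1* held neither motif. In *Trim25* the single ISRE core match lay 9 bases before the start site. No match to either motif was found in the windows of *Irf7* and *Oasl2*.

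Most of the 33 genes were expressed at low levels in these cells. Per kilobase of transcript, 7 of the 33 lay above the median of all tested genes (5.57 CPM per kb), led by *Bst2* (17.9 CPM per kb), *Trim25* (12.01), *Samhd1* (11.7), *Irf1* (9.78) and *Eif2ak2* (9.76), each as the mean over 8 libraries. The filter removed 10 genes. *Mx1* and *Mx2* belong to the dynamin-like GTPase family. *Rsad2* encodes viperin, *Oas1a* an oligoadenylate synthetase, *Usp18* the ISG15 protease and *Cmpk2* a mitochondrial nucleotide kinase. *Gbp3* encodes a guanylate-binding GTPase and *Zbp1* a Z-nucleic acid sensor, and the others were *Xaf1* and *Ifi44*. The highest count of any of the 10 in a library was 21 (*Gbp3*), and *Ifi44* and *Mx1* reached no more than 4. These 10 genes were not tested in the main fit, and at so few counts small differences were not detectable. A fit with no filter on low counts called none of them in any contrast between conditions or between the lines. *Mx1* had 0 counts in all 4 TGFβ1 libraries and 1 to 4 counts in the SB505124 libraries. *Mx2* had 2 to 8 counts in the SB505124 libraries, 2 and 0 in the Smad4-off TGFβ1 libraries of B73 and B87, and 0 in both Smad4-on TGFβ1 libraries. *Rsad2* likewise had 0 counts in both Smad4-on TGFβ1 libraries, against 1 and 9 in the Smad4-off ones. The others are given as counts in B73 and B87 under TGFβ1, Smad4-off against Smad4-on. *Oas1a* had 6 and 1 against 2 and 0, and *Cmpk2* 1 and 3 against 0 and 2. *Gbp3* had 6 and 21 against 2 and 7, and *Usp18* 2 and 5 against 1 and 3. *Xaf1* had 4 and 8 against 1 and 8. *Ifi44* had 0 and 0 against 0 and 2, and *Zbp1* 1 and 1 against 2 and 0.

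The ligands were not detected. Of 20 interferon ligand genes in the table, 19 had 0 counts in all libraries, *Ifnb1* and *Ifng* among them, and the highest count of any ligand gene in a library was 1. The receptor genes were expressed. *Ifnar1* had 66.4 to 92.1 CPM and *Ifnar2* 14.5 to 24.9 CPM, and neither passed the test between *Smad4* states or between treatments.

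**Figure D1:**
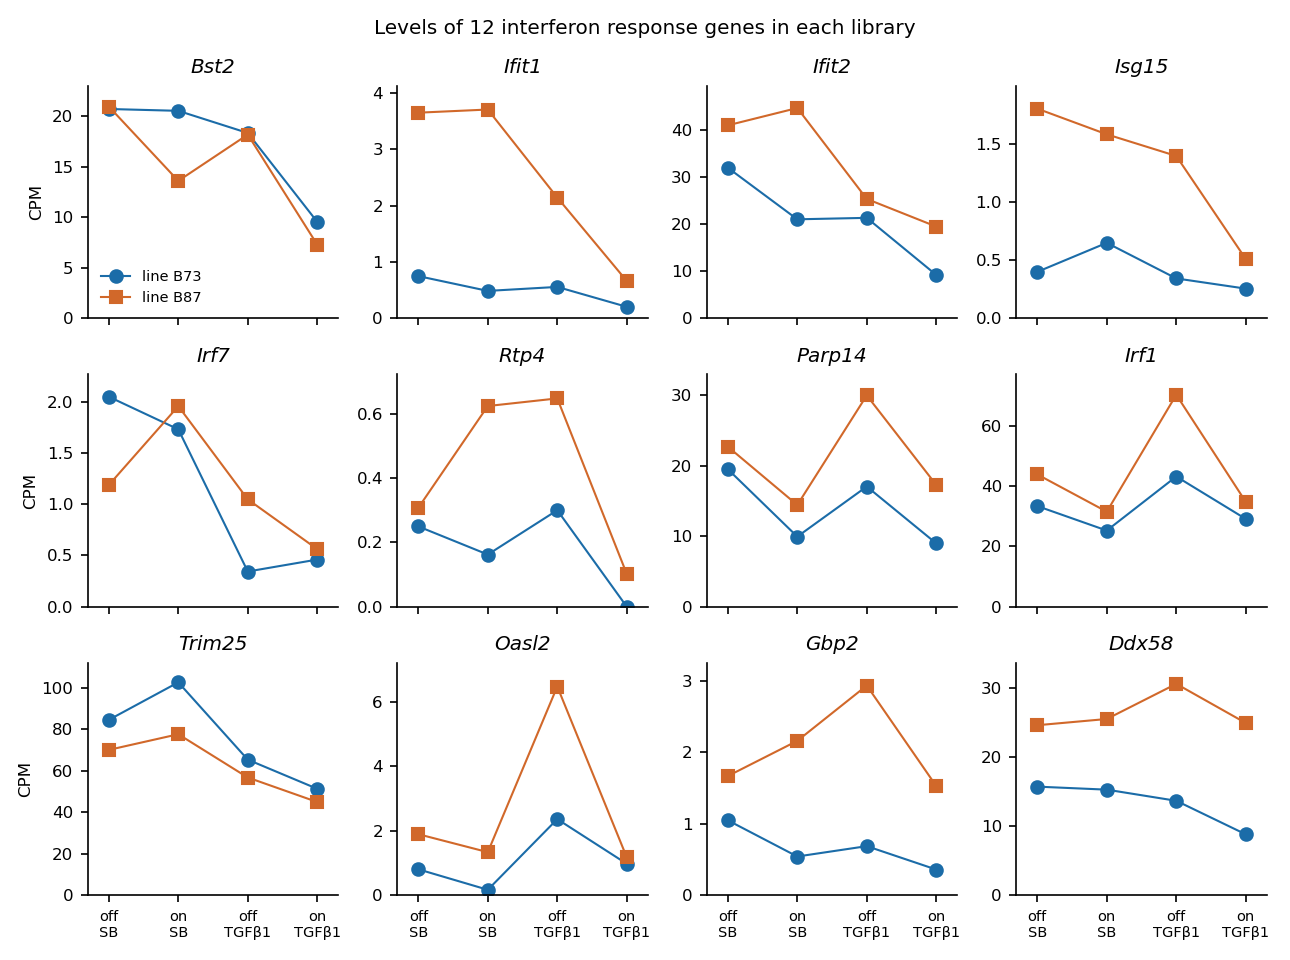
Levels in CPM (y axes, linear and starting at 0, scaled per gene) of 12 genes in the 8 libraries, with Smad4-off and Smad4-on cells under SB505124 (SB) and TGFβ1 on the x axis, circles for line B73 and squares for B87. *Bst2* was lowest in Smad4-on cells under TGFβ1 in both lines (9.54 and 7.29 CPM), and *Ifit1*, *Isg15*, *Gbp2* and *Ddx58* lay higher in B87 than in B73 in all 4 conditions.

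Under TGFβ1, 3 of the 23 tested genes, *Bst2*, *Irf1* and *Parp14*, passed the adjusted p threshold of 0.05 between the *Smad4* states. All 3 were lower with *Smad4* on, and none passed as higher. Whether *Smad4*, Dox or the hairpin and GFP accounts for this was not tested. *Bst2*, which encodes tetherin, a membrane protein that holds budding virus at the cell surface (chromosome 8, 71534255 to 71537456), had 18.3 CPM in B73 and 18.2 CPM in B87 in Smad4-off cells, and 9.54 and 7.29 CPM in Smad4-on cells. Both Smad4-on libraries lay below both Smad4-off libraries, and the group means were 8.42 ± 1.59 and 18.3 ± 0.112 CPM (SD, n = 2). On the log2 scale this was a change of -1.13 ± 0.187 (SE, edgeR adjusted p 0.0179). *Irf1*, a transcription factor that both interferon types induce (chromosome 11, 53770014 to 53778374), had 43.2 and 70.2 CPM in Smad4-off cells and 29.1 and 34.8 CPM in Smad4-on cells of B73 and B87. These groups did not overlap either, at a log2 change of -0.80 ± 0.127 (edgeR adjusted p 0.0161). *Parp14*, an ADP-ribosyltransferase (chromosome 16, 35832874 to 35871544), had 17.1 and 30.0 CPM in Smad4-off cells and 8.98 and 17.3 CPM in Smad4-on cells. Its groups overlapped because B87 was higher throughout, but the level was lower in each line, by a log2 change of -0.85 ± 0.188 (edgeR adjusted p 0.0447).

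Calls required both an adjusted p under 0.05 and more than a 2-fold change. By this rule 1 of the 23 genes, *Bst2*, was called lower, where 1.8% of all 14301 tested genes were. By adjusted p alone the 3 genes compare with 3.28% of all tested genes. Without overlap between groups, 11 of the 23 were lower and 0 higher, where 22.5% of all tested genes were lower and 22.3% higher in this sense. The estimate was negative for 20 of 23 genes, with a median log2 fold change of -0.43 against -0.01 over all tested genes, and 16 of 23 were lower in both lines. The sign was the same in both lines for 17 of 23, against 10058 of 14301 tested genes. Leaving out any 1 of the 4 TGFβ1 libraries removed the call of *Bst2* (edgeR adjusted p 0.0862 to 0.130), and the edgeR fit with no replicate block, that is, without the cell line as a term, called none and gave adjusted p-values of 0.152, 0.292 and 0.457 for *Bst2*, *Irf1* and *Parp14*. Leaving out a Smad4-on SB505124 library, of B73 or of B87, gave 2 calls, *Bst2* and *Oasl2*. Among markers of other cell types, the fibroblast gene *Col1a1* was called higher and the endothelial gene *Kdr* lower in the same contrast. The 6 fibroblast markers summed to 6.43 to 184 CPM in Smad4-off and 8.88 to 647 CPM in Smad4-on cells under TGFβ1, with *Lum* at 0, the 4 endothelial markers summed to 7.24 to 26.1 and 3.42 to 4.79 CPM, with *Pecam1* at no more than 5 counts, and their part in the result was not tested.

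Other effectors showed larger but less certain estimates. *Oasl2*, an oligoadenylate synthetase-like protein (chromosome 5, 114896936 to 114912234), had 2.36 and 6.48 CPM in Smad4-off cells under TGFβ1 and 0.970 and 1.17 CPM in Smad4-on cells of B73 and B87, without overlap, which is -1.90 ± 0.468 on the log2 scale (edgeR adjusted p 0.0596). *Ifit1*, a protein that binds viral RNA (chromosome 19, 34640871 to 34650009), had 0.557 and 2.14 CPM against 0.204 and 0.663 CPM (log2 fold change -1.64 ± 0.414, adjusted p 0.0637). Neither passed the threshold. *Rtp4* had 7 and 13 counts against 0 and 2, a ratio of scaled counts of 0.111 with a 95% counting interval of 0.0125 to 0.456 (edgeR adjusted p 0.0759). Of the ISGF3 subunits, *Stat2* gave -0.61 ± 0.170 (adjusted p 0.0837) and *Irf9* -0.04 ± 0.140 (adjusted p 0.881). Of the RNA sensors, *Ddx58* (RIG-I) gave -0.43 ± 0.212 and *Dhx58* (LGP2) -0.06 ± 0.384, whereas *Ifih1* (MDA5) gave 0.48 ± 0.214 (adjusted p 0.269, 0.945 and 0.23). *Ifih1* was the single gene of the 23 with a higher level in both lines, at 4.50 and 10.7 CPM in Smad4-off cells and 8.42 and 11.5 CPM in Smad4-on cells. *Parp9* and *Dtx3l*, an ADP-ribosyltransferase and the ubiquitin ligase that partners it, lie head to head on opposite strands of chromosome 16 with overlapping ends and gave -0.37 ± 0.176 and 0.06 ± 0.147.

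**Figure D2:**
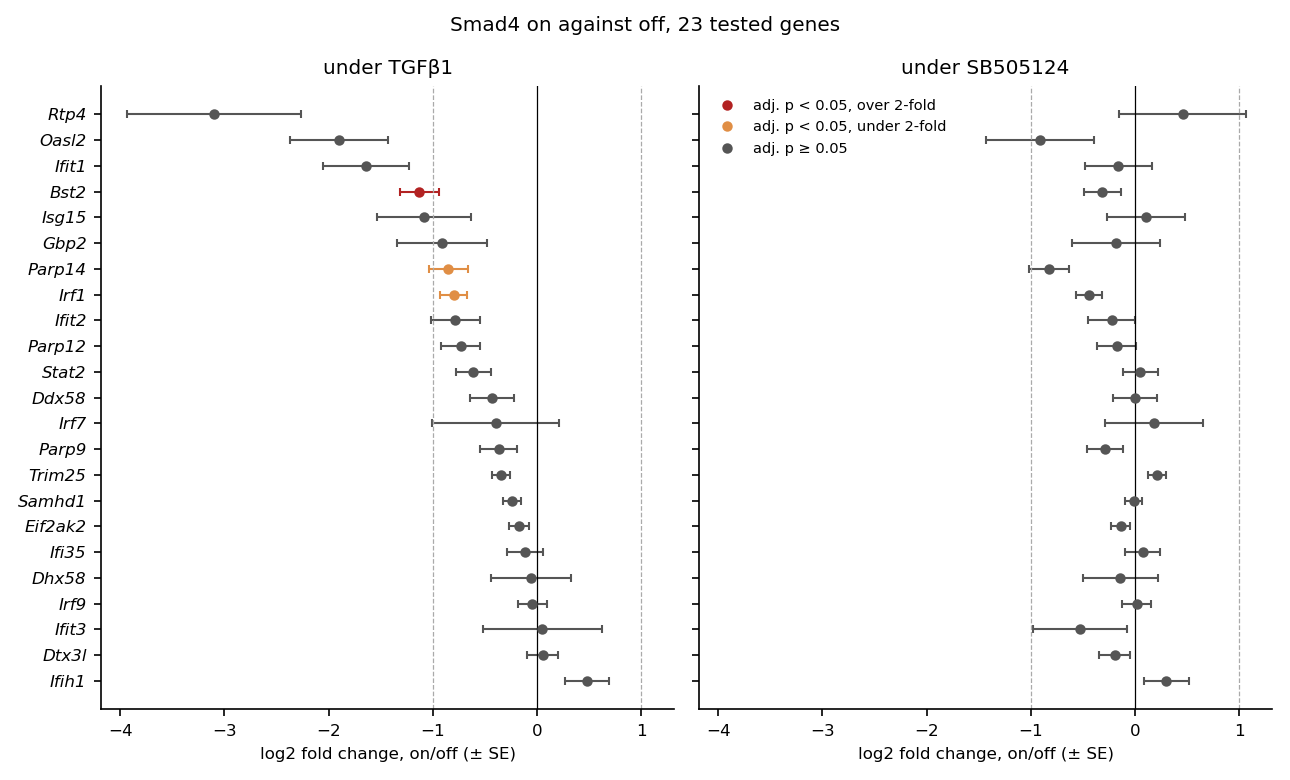
Log2 fold change of Smad4-on against Smad4-off cells (x axes, points with ± SE from edgeR, dashed lines at 2-fold) for the 23 tested genes, under TGFβ1 on the left and SB505124 on the right, in the same order of genes. Under TGFβ1 20 of 23 points lie below 0 and 3 passed the adjusted p threshold, 1 of them past 2-fold, and under SB505124 none passed.

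Under SB505124, none of the 23 genes passed in edgeR between Smad4-on and Smad4-off cells (0 called, against 1.09% of all tested genes in either direction). An unadjusted p under 0.05 was found for 3, against 1809 of all 14301 tested genes. DESeq2 with the line gave 1 gene an adjusted p under 0.05 and called 0. The 3 genes of lowest adjusted p were *Parp14*, *Irf1* and *Trim25*. *Parp14* had 19.5 and 22.7 CPM in Smad4-off cells and 9.94 and 14.4 CPM in Smad4-on cells of B73 and B87. Both Smad4-on libraries lay below both Smad4-off libraries, and the log2 fold change of -0.82 ± 0.189 was close in size to that under TGFβ1, but its adjusted p was 0.113. *Irf1* had 33.3 and 43.8 CPM against 25.2 and 31.5 CPM (log2 fold change -0.44 ± 0.128, adjusted p 0.202). *Trim25*, a ubiquitin ligase that acts on RIG-I, had 84.5 and 70.0 CPM against 103 and 77.6 CPM (0.22 ± 0.087, adjusted p 0.37). *Bst2* had 20.7 and 21.0 CPM in Smad4-off cells and 20.5 and 13.6 CPM in Smad4-on cells, so that a lower level was seen in B87 (log2 difference -0.62) and hardly in B73 (-0.01). The median log2 fold change over the 23 genes was -0.14. It was -0.03 and -0.23 without the Smad4-off SB505124 library of B73 and of B87, and -0.09 and -0.08 without the Smad4-on ones. Without overlap, 6 genes were lower, where 15.3% of all tested genes were, and 1, *Ifi35*, was higher, where 16.1% were.

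In Smad4-on cells, the antiviral effectors *Bst2*, *Ifit1*, *Ifit2*, *Isg15* and *Rtp4* and the transcription factor *Irf7* were lower under TGFβ1 than under SB505124 by more than 2-fold, and *Trim25* and *Stat2* were lower by less than that. *Bst2* had 20.5 and 13.6 CPM under SB505124 and 9.54 and 7.29 CPM under TGFβ1 in B73 and B87, or -1.01 ± 0.187 on the log2 scale (SE, edgeR adjusted p 0.00708). *Ifit1* had 0.486 and 3.70 CPM against 0.204 and 0.663 CPM (-2.12 ± 0.400, adjusted p 0.00753), and its groups overlapped because the B73 level under SB505124 lay below the B87 level under TGFβ1. *Ifit2*, a relative of *Ifit1* in the same cluster whose protein restrains translation of viral RNA (chromosome 19, 34550694 to 34576419), had 21.1 and 44.8 CPM against 9.24 and 19.5 CPM (-1.19 ± 0.235, adjusted p 0.00929). Its fall was alike in the lines, at log2 differences of -1.18 and -1.19.

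*Isg15*, the ubiquitin-like modifier (chromosome 4, 156199424 to 156200818), had 0.648 and 1.58 CPM under SB505124 and 0.255 and 0.510 CPM under TGFβ1 in Smad4-on B73 and B87 cells, or 12 and 38 counts against 5 and 10. On the log2 scale it fell by 1.52 ± 0.437 (edgeR adjusted p 0.0355). *Irf7* (chromosome 7, 141262706 to 141266481) had 1.73 and 1.95 CPM against 0.459 and 0.561 CPM (-1.84 ± 0.547, adjusted p 0.0398). In both genes the lowest SB505124 library lay above the highest TGFβ1 library. *Rtp4*, which encodes a receptor-transporting chaperone (chromosome 16, 23520291 to 23614222), had 3 and 15 counts under SB505124 and 0 and 2 counts under TGFβ1. As a ratio of summed, scaled counts, its level under TGFβ1 was 0.121 times that under SB505124, with a 95% counting interval of 0.0136 to 0.504 (edgeR adjusted p 0.0429). Of the 75-base stretches in its transcripts, 10.5% also occur in another gene, so part of these few reads may have been assigned differently. *Rtp4* passed the filter on low counts only through B87 libraries, with these 15 counts and with 13 in Smad4-off cells under TGFβ1. Each lies on the higher side of a comparison given for *Rtp4*, so these comparisons are not independent of the filter.

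*Trim25* (chromosome 11, 88999376 to 89020293) was the most deeply measured of the genes lower under TGFβ1, with at least 880 counts in each library. Smad4-on cells had 103 and 77.6 CPM under SB505124 and 51.2 and 44.9 CPM under TGFβ1, without overlap (-0.90 ± 0.089 on the log2 scale, edgeR adjusted p 0.000592). *Stat2* had 25.1 and 19.0 CPM against 13.1 and 12.9 CPM (-0.75 ± 0.170, adjusted p 0.0154). Its partner *Irf9* had 14.1 and 12.2 CPM against 13.0 and 10.0 CPM (-0.20 ± 0.140, adjusted p 0.317).

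By the rule of 2-fold and adjusted p, 6 of the 23 genes were called lower and 0 higher, where 8.31% of all tested genes were called lower. *Rtp4*, which passed the filter only through its higher libraries, is 1 of the 6. By adjusted p alone 8 were lower, where 17.6% of all tested genes were. Without overlap between groups 11 genes were lower, where 29.8% of all tested genes were, and 1, *Dtx3l*, was higher (14.3 and 12.3 CPM against 18.2 and 17.5 CPM), where 28.5% were. The median log2 fold change was -0.38, against -0.02 over all tested genes. The edgeR fit with no replicate block called 1 gene (*Bst2*), with 2 past the adjusted p threshold, and DESeq2 with the line called 2 (*Ifit1* and *Ifit2*). *Bst2* had an adjusted p of 0.000348 in that DESeq2 fit, at the 2-fold limit. Leaving out a Smad4-on library gave 2 calls for B73 (*Ifit1* with *Ifit2* or *Bst2*) and 1 call for B87 (*Bst2* or *Ifit2*), whichever the treatment. The summed level of the 8 leukocyte markers was also lowest in Smad4-on cells under TGFβ1, at 1.33 to 1.48 CPM, against 2.15 to 6.39, 2.37 to 3.51 and 2.19 to 3.04 CPM in the Smad4-off SB505124, Smad4-on SB505124 and Smad4-off TGFβ1 groups. The sum was mostly *Cd68* (23 to 126 counts), since *Cd3e*, *Adgre1* and *Siglech* were at 0 and *Ptprc* at no more than 3 counts. Of the 6 epithelial markers *Krt19* and *Cdh1* were called lower under TGFβ1, of the fibroblast markers *Col1a1* higher and of the endothelial markers *Cdh5* higher, and their part in the result was not tested.

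**Figure D3:**
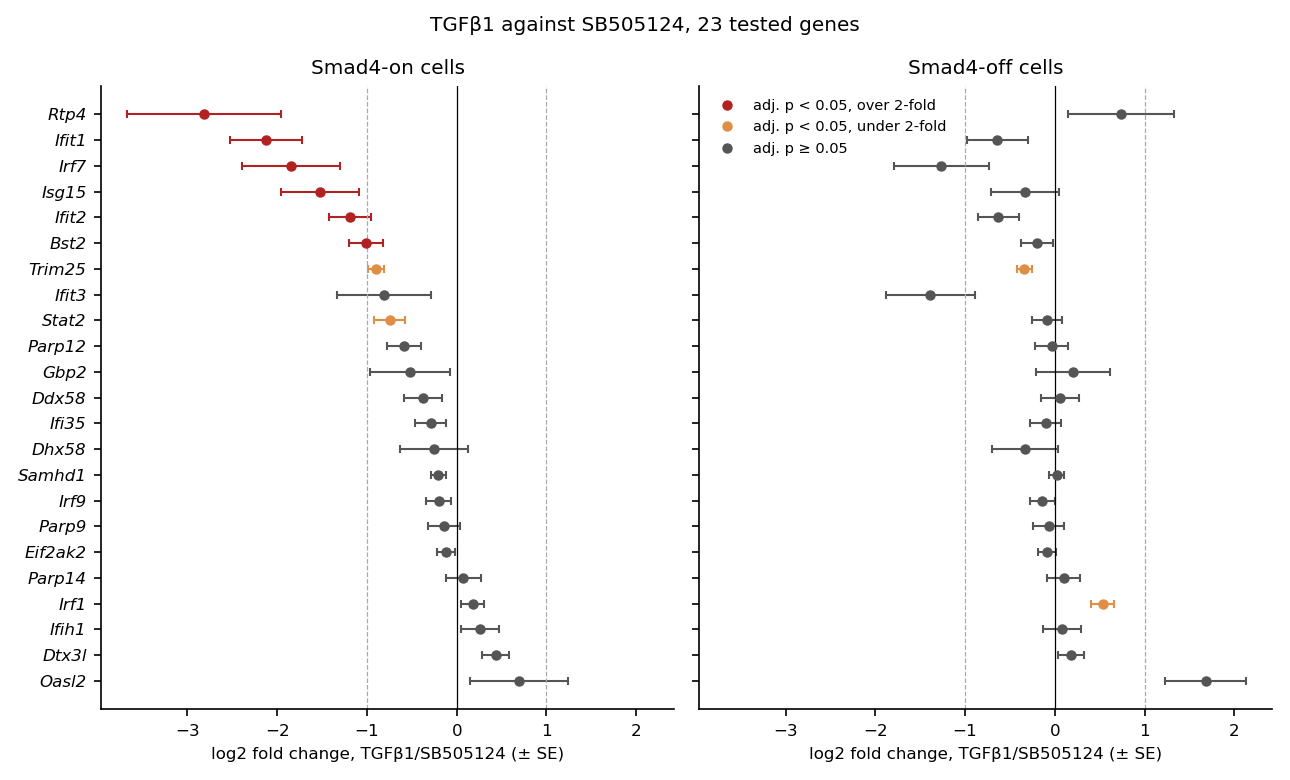
Log2 fold change of TGFβ1 against SB505124 (x axes, points with ± SE from edgeR, dashed lines at 2-fold) for the 23 tested genes, in Smad4-on cells on the left and Smad4-off cells on the right, in the same order of genes. In Smad4-on cells 8 genes passed the adjusted p threshold, all lower, and 6 of them past 2-fold, whereas in Smad4-off cells *Irf1* (higher) and *Trim25* (lower) passed it, both under 2-fold.

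In Smad4-off cells, *Irf1* was higher and *Trim25* lower under TGFβ1 than under SB505124, each by less than 2-fold. *Irf1* had 33.3 and 43.8 CPM under SB505124 and 43.2 and 70.2 CPM under TGFβ1 in B73 and B87. The lowest TGFβ1 library lay just below the highest SB505124 library, and the log2 change was 0.53 ± 0.126 (edgeR adjusted p 0.0363). *Trim25* had 84.5 and 70.0 CPM against 65.3 and 56.7 CPM, without overlap (-0.34 ± 0.088, adjusted p 0.0486). *Oasl2* gave the largest positive estimate, with 0.799 and 1.89 CPM under SB505124 and 2.36 and 6.48 CPM under TGFβ1 (1.68 ± 0.450, adjusted p 0.0542), and both TGFβ1 libraries lay above both SB505124 libraries. *Bst2*, at 20.7 and 21.0 CPM against 18.3 and 18.2 CPM, gave -0.19 ± 0.178 (adjusted p 0.528). *Isg15* had 0.399 and 1.80 CPM against 0.343 and 1.39 CPM (-0.33 ± 0.381, adjusted p 0.621).

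Of the 23 genes, 0 were called in Smad4-off cells, where 5.93% of all tested genes were called in either direction. The 2 genes past the adjusted p threshold compare with 13.2% of all tested genes. At an unadjusted p under 0.05 edgeR gave 6 genes, against 4106 of all 14301 tested genes, and DESeq2 with the line called 0. Without overlap 8 genes were lower, where 25.9% of all tested genes were, and 1, *Oasl2*, was higher, where 23.5% were. The median log2 fold change was -0.09, at -0.19 in B73 and 0.07 in B87. It was 0.05 and -0.25 without the Smad4-off TGFβ1 library of B73 and of B87, and -0.06 without the Smad4-off SB505124 library of B73. Leaving out any 1 of the 4 Smad4-on libraries gave 1 gene called higher, *Oasl2*, and with no replicate block edgeR gave adjusted p-values of 0.368 for *Irf1* and 0.389 for *Trim25*. In this contrast *Krt19* was called lower and *Col1a1*, *Cdh5* and *Kdr* higher, and their part in the result was not tested.

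The difference between the *Smad4* effects under TGFβ1 and under SB505124 was tested as an interaction, which is also the difference between the TGFβ1 effects in Smad4-on and Smad4-off cells. None of the 23 genes was called by edgeR or by DESeq2 with the line, and 0.189% of all tested genes were called by edgeR in either direction. At an unadjusted p under 0.05 there were 5 genes in edgeR, against 1493 of all 14301 tested genes, and 3 in DESeq2. *Trim25* had the lowest p, with a log2 difference of -0.56 ± 0.124 (edgeR adjusted p 0.192), at -0.63 in B73 and -0.48 in B87. *Bst2* gave -0.82 ± 0.258 (adjusted p 0.318), at -0.92 and -0.69 in the lines. *Rtp4*, at few counts, had an adjusted p of 0.293, *Ifit1* gave -1.48 ± 0.527 (adjusted p 0.371) and *Stat2* -0.66 ± 0.237 (adjusted p 0.376). The estimate was negative for 19 of 23 genes, with a median of -0.44. By line, 12 genes were negative in B73 and 21 in B87, and 11 of 23 were negative in both. The sign was the same in both lines for 12 of 23, against 9334 of 14301 tested genes. The median was -0.21 and -0.23 without the B87 Smad4-off library under SB505124 and under TGFβ1 (15 and 16 negative), -0.29 and -0.28 without the Smad4-on SB505124 library of B73 and of B87, and -0.21 over the 16 genes with at least 10 counts in every library. The calls in Smad4-on cells and their absence in Smad4-off cells are thus not shown to differ for any single gene.

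The condition with the lowest level was described for each gene. Smad4-on cells under TGFβ1 had the lowest of the 4 conditions for 14 of 23 genes in B73, for 17 in B87 and for 11 in both lines, where 22.5% of all tested genes were lowest there in both lines. The 11 were *Bst2*, *Gbp2*, *Ifit1*, *Ifit2*, *Isg15*, *Parp12*, *Parp9*, *Rtp4*, *Samhd1*, *Stat2* and *Trim25*. Their falls differed widely in size. *Samhd1*, a deoxynucleotide hydrolase and the most abundant of them in CPM, had 92.7 and 97.2 CPM there against 104 to 115 CPM in the other 6 libraries. *Parp12* had 8.93 and 12.03 CPM there, and 12.2 to 14.3 CPM in the other B73 and 16.9 to 23.7 CPM in the other B87 libraries. *Ifih1* was highest there in both lines, at 8.42 and 11.5 CPM.

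**Figure D4:**
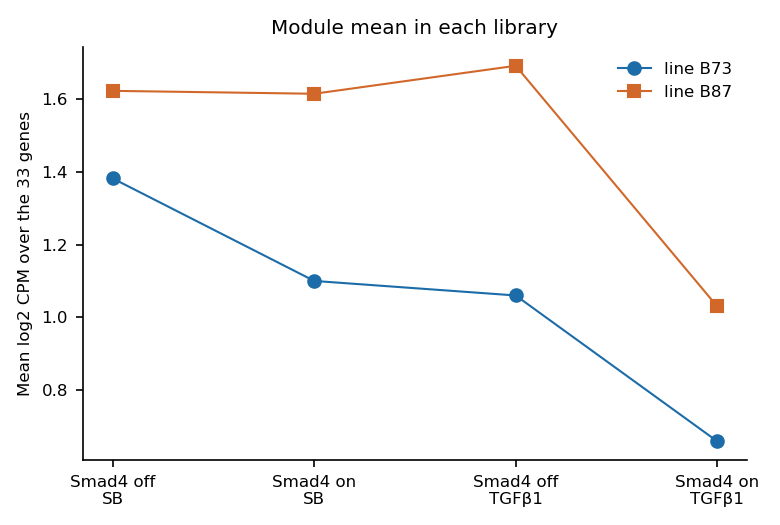
Mean of log2 CPM over all 33 genes (y axis, not starting at 0) in each of the 8 libraries, with circles for line B73 and squares for B87. Smad4-on cells under TGFβ1 had the lowest mean in both lines (0.66 and 1.03), and B87 lay above B73 in all 4 conditions.

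Averaged over all 33 genes, log2 CPM (with a prior count of 2) was 1.38 in Smad4-off and 1.10 in Smad4-on B73 cells under SB505124, and 1.06 and 0.66 under TGFβ1. In B87 it was 1.62, 1.62, 1.69 and 1.03 in the same order. Under TGFβ1 the mean was lower in Smad4-on cells by 0.53 ± 0.185 (SD of the difference over lines, n = 2), and under SB505124 by 0.14 ± 0.194. The difference between TGFβ1 and SB505124 was -0.51 ± 0.102 with *Smad4* on and -0.13 ± 0.277 with *Smad4* off, the last being of opposite sign in the lines (-0.32 in B73 and 0.07 in B87). The difference of differences was -0.39 ± 0.378, close in size to its spread. In B87 the other 3 conditions lay within 1.62 to 1.69, whereas in B73 they ranged from 1.06 to 1.38. The mean weights each gene equally, so the 10 genes near 0 counts enter it with values set largely by the prior count.

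The lines themselves also differed. Averaged over the 4 conditions, 5 of the 23 genes were called higher in B87 than in B73 and 0 lower, where 3.87% of all tested genes were called higher and 4.5% lower. These were *Ifit1*, *Isg15*, *Gbp2*, *Oasl2* and *Ddx58*. *Ifit1* had 0.204 to 0.749 CPM in B73 and 0.663 to 3.70 CPM in B87, higher in B87 within each condition, by 2.27 ± 0.263 on the log2 scale (SE, edgeR adjusted p 0.00164). *Isg15* had 0.255 to 0.648 CPM in B73 and 0.510 to 1.80 CPM in B87 (1.66 ± 0.292, adjusted p 0.0094). Its B73 libraries alone (5 to 12 counts, against 10 to 41 in B87) would not have passed the filter on low counts. The call of *Isg15*, 1 of the 5, is therefore not independent of the filter. *Gbp2*, a guanylate-binding GTPase (chromosome 3, 142620602 to 142638008), had 0.357 to 1.05 CPM in B73 and 1.53 to 2.94 CPM in B87, without overlap (1.66 ± 0.309, adjusted p 0.0116). *Oasl2* gave 1.33 ± 0.349 (adjusted p 0.0406). *Ddx58*, the RNA sensor RIG-I (chromosome 4, 40203773 to 40239828), had 15.7, 15.2, 13.6 and 8.78 CPM in B73 and 24.6, 25.5, 30.5 and 24.9 CPM in B87 (Smad4 off and on under SB505124, then off and on under TGFβ1), so that the lowest B87 library lay above the highest B73 library (1.01 ± 0.151, adjusted p 0.00496).

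By adjusted p alone 10 genes were higher in B87, *Ifih1* (0.84 ± 0.152), *Ifit2* (0.68 ± 0.165), *Parp14* (0.62 ± 0.134), *Parp12* and *Irf1* being the others, where 8.92% of all tested genes were higher. The single lower gene was *Trim25* (-0.27 ± 0.062, adjusted p 0.0258), where 9.68% of all tested genes were lower. In all 4 conditions B87 lay above B73 for 11 of 23 genes and below it for 2, where 18.4% and 20.3% of all tested genes lay above and below. The sensors *Ddx58* and *Ifih1* were both in the first class, whereas *Bst2*, *Stat2* and *Irf9* gave small negative estimates (-0.24 ± 0.129, -0.19 ± 0.119 and -0.20 ± 0.099). The module mean was 0.44 ± 0.170 higher in B87 (SD over conditions, n = 4). Each line is a single line, so this is a difference between these 2 lines. It went together with marker genes. The 6 epithelial markers summed to 3870 to 6180 CPM in B73 and 1170 to 2070 CPM in B87, with 4 of them called lower in B87 and none higher. The 6 fibroblast markers summed to 4 to 8.88 CPM in B73 and 43.9 to 647 CPM in B87, with *Col1a1*, *Pdgfra* and *Pdgfrb* called higher, *Col1a2* called lower and *Lum* at 0. The endothelial gene *Kdr* was also higher in B87, and the part of these genes in the result was not tested. Leaving out the Smad4-off TGFβ1 library of B73, or that of B87, gave 2 calls, *Ifit1* and *Isg15*.

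**Figure D5:**
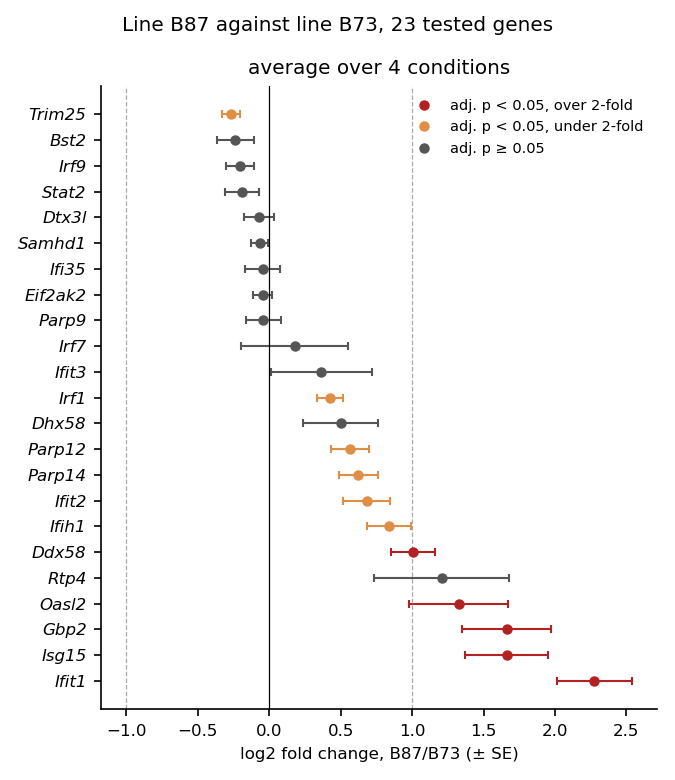
Log2 fold change of line B87 against line B73, averaged over the 4 conditions (x axis, points with ± SE from edgeR, dashed lines at 2-fold), for the 23 tested genes. *Ifit1*, *Isg15*, *Gbp2*, *Oasl2* and *Ddx58* were called higher in B87, and *Trim25* was lower by less than 2-fold.

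Whether the lines responded differently was tested with terms for line by *Smad4* and line by TGFβ1. For line by *Smad4*, 0 of 23 genes were called in edgeR, where 0.392% of all tested genes were, and 0 in DESeq2. At an unadjusted p under 0.05 edgeR gave 2, against 1408 of all 14301 tested genes. The lowest p was that of *Ifit2* (log2 difference 0.78 ± 0.146, adjusted p 0.106). Under TGFβ1 *Ifit2* was lower in Smad4-on cells by a log2 difference of -1.20 in B73 and -0.38 in B87. For line by TGFβ1, 0 of 23 were called in edgeR, as were 0% of all tested genes, and 0 in DESeq2. Here 3 had an unadjusted p under 0.05 in edgeR, against 1198 of all 14301 tested genes. *Ddx58* had the lowest p (0.63 ± 0.185, adjusted p 0.542).

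Other genes of the pathway were counted from lists that do not include the 33. Of 15 receptor and signaling genes, 3 were called lower and 0 higher in Smad4-on cells under TGFβ1, where 1.8% of all tested genes were called lower. *Ifngr1*, the ligand-binding chain of the type II receptor, had 226 and 201 CPM in Smad4-off and 121 and 84.2 CPM in Smad4-on cells of B73 and B87 (-1.08 ± 0.170, edgeR adjusted p 0.015). *Ifnlr1*, the specific chain of the type III receptor, had 6.51 and 3.84 CPM against 1.89 and 1.73 CPM (-1.48 ± 0.222, adjusted p 0.0129). The phosphatase gene *Ptpn6* gave -1.88 (adjusted p 0.0371). In Smad4-on cells *Ifnlr1* (-2.27 ± 0.219), *Ptpn6* (-2.56 ± 0.379) and *Ifngr2* (-1.25 ± 0.144) were called lower under TGFβ1 than under SB505124, where 8.31% of all tested genes were, with adjusted p-values of 0.000537, 0.00292 and 0.00106. In Smad4-off cells *Ifnlr1* was the single gene of the 15 called lower (-1.14 ± 0.196, adjusted p 0.0125), where 2.82% of all tested genes were. The type I receptor genes *Ifnar1* and *Ifnar2* were thus not among the called receptors.

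Among 51 tested further interferon-stimulated genes, 6 were called lower and 0 higher in Smad4-on cells under TGFβ1 (1.8% of all tested genes were called lower), at a median log2 fold change of -0.49. They were *Ly6e*, *Ifitm1*, *Gbp9*, *Trim14*, *Ifi203* and *Uba7*, which encodes the enzyme that activates ISG15. *Uba7* had 3.60 and 7.77 CPM in Smad4-off and 0.510 and 1.22 CPM in Smad4-on cells of B73 and B87 (-2.68 ± 0.388, edgeR adjusted p 0.0116). *Ly6e* had 474 and 215 CPM against 209 and 86.6 CPM (-1.25 ± 0.103, adjusted p 0.00178). Under SB505124 edgeR called 0 of the 51, with 12 at an unadjusted p under 0.05 and *Ly6e* past the adjusted p threshold below 2-fold. Over all 14301 tested genes, 1809 had such an unadjusted p. In Smad4-on cells 9 of the 51 were called lower under TGFβ1 than under SB505124 (*Lgals9*, *Lgals3bp*, *Oas1b*, *Oasl1*, *Uba7*, *Trim14*, *Ifi203*, *Iigp1* and *Phf11d*), where 8.31% of all tested genes were. In Smad4-off cells 1 was, *Ifi203*, where 2.82% of all tested genes were. *Ifi203* had 25.3 and 13.6 CPM under SB505124 and 0.766 and 0.765 CPM under TGFβ1 in Smad4-on cells (-4.62 ± 0.365, adjusted p 0.000263). Of 17 tested sensor and adaptor genes, *Ifi204* alone was called between conditions, lower under TGFβ1 in Smad4-on cells (-1.40 ± 0.163, adjusted p 0.00113), and 1 of 17 is below the 8.31% of all tested genes. Between the lines 5 of the 51 were called higher in B87 and 4 lower, where 3.87% and 4.5% of all tested genes were.

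Several of the 33 genes share sequence or position with others, which bears on how reads were assigned. Of the 75-base stretches in their transcripts, 47.6% in *Oas1a* and 41.1% in *Ifit3* also occur in the copies *Oas1g* and *Ifit3b*, and 5.19% in *Ifit1* occur in *Ifit1bl2*. *Ifit3* values (0.214 to 0.948 CPM) are therefore uncertain beyond their counting error. *Irf9*, *Parp14* and *Rtp4* overlap another gene on the same strand (*Rnf31*, *Gm49730* and *Gm45338*). The genes also lie in clusters, with *Ifit1*, *Ifit2* and *Ifit3* close together on chromosome 19, *Gbp2* and *Gbp3* on chromosome 3, *Rsad2* and *Cmpk2* on chromosome 12, *Mx1* and *Mx2* on chromosome 16, and *Parp9*, *Dtx3l* and *Parp14* close together elsewhere on the same chromosome.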

How the data were processed

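Bulk RNA-seq counts of 8 libraries were used. The authors made poly(A)-selected stranded libraries (75-bp single-end reads), trimmed reads with Trimmomatic 0.36, aligned them to GRCm38 with STAR 2.5.3a and counted them per gene with featureCounts 1.6.3, and they deposited unpooled raw counts. How strand and multiply aligned reads were handled is not given in the sources used here. Groups came from the line, Dox state and treatment in the sample titles. The genotype that all groups share is not reported here in full.

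Counts were tested with edgeR 4.0.16 in R 4.3.3 (TMM scaling, the filterByExpr filter, quasi-likelihood F-test). All 8 libraries entered 1 model with the 4 groups and the line, and p-values were Benjamini-Hochberg adjusted over 14301 genes. Genes were called at an adjusted p under 0.05 and a change over 2-fold, the thresholds of the study, which used DESeq2 and names no covariate. The pairing comes from the line in each title. Deviations of the lines from the group means correlated at 0.642 to 0.774 over 6 pairs of groups. Standard errors are log2 fold changes over the root of the F statistic, and values per line are differences in log2 CPM (prior count 2). The interval of *Rtp4* is exact and, like the floor of 3 counts, covers counting error only, since PCR copies cannot be told apart. Replicates are 2 lines, and the line term removes the constant difference between them. P-values between conditions therefore measure the spread that is left, that is, how far changes differ between the lines. P-values between the lines use the 4 conditions as repeats and do not measure the spread among lines.

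Full values were given for members called in a contrast between conditions, for the 3 members of lowest adjusted p where none was called, and for members called between lines. Other members are given by counts or, where named beyond this, were chosen after their values were seen, as were the examples among the called pathway genes. The members and lists were chosen with earlier results of these data known. Alternatives were DESeq2 1.42.0, its size factors, no line term, other filters, no fold-change rule, a test against 2-fold, fits of the 4 libraries compared, other prior counts, and leaving out each library. The scripts were tested on simulated data.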

Additional observations from a re-analysis of the deposited data

How the results depend on the processing

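The counts of called members depended on the model. With no replicate block (pairing by line dropped), the 1 member lower in Smad4-on cells under TGFβ1 became 0 and the 6 lower under TGFβ1 in Smad4-on cells became 1, and no other count of calls changed. Those 6 were 2 in DESeq2 with the line, 2 in DESeq2 with no replicate block, 2 with at least 10 counts in every library (16 members tested, median log2 fold change -0.241) and 0 in a test against 2-fold. No filter on low counts gave 4 members lower in Smad4-on cells under TGFβ1 (33 tested, median -0.615, with *Ifit1*, *Oasl2* and *Rtp4* beside *Bst2*) and 1 (*Oasl2*) higher under TGFβ1 in Smad4-off cells. Fits of the 4 libraries compared gave 2 and 1 for these counts, and the test against 2-fold gave 0 for the first. With no fold-change rule, 3 members were lower in Smad4-on cells under TGFβ1, 1 was higher and 1 lower under TGFβ1 in Smad4-off cells, and 10 were higher and 1 lower in B87. The 5 higher in B87 were 1 in the test against 2-fold and 1 with at least 10 counts in every library, where the median was -0.0454 in place of 0.42 and 16 of the 23 members were tested. The mean over the 33 genes under TGFβ1 in Smad4-on cells differed by -0.728 at a prior count of 0.5 and -0.399 at 5.

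Leaving out 1 library at a time, members lower in Smad4-on cells under TGFβ1 were 0 to 2 (median -0.622 to -0.32), and members lower under TGFβ1 in Smad4-on cells 1 to 6 (-0.515 to -0.286). Members higher under TGFβ1 in Smad4-off cells were 0 to 1 (-0.254 to 0.046, above 0 without the B73 Smad4-off TGFβ1 library, cause not tested), and members higher in B87 2 to 4 (0.319 to 0.601). The median of the *Smad4* effect under SB505124 was -0.234 to -0.029 (-0.0628 with no replicate block) and that of the interaction -0.534 to -0.207. The lone library of a group was assumed to vary like the others. For single members past the adjusted p threshold, 214 combinations of member and alternative stayed past it, 129 did not and 0 reversed direction. With 2 libraries a group and 10 members at no more than 21 counts, small differences were not detectable.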
